A study of Mus musculus with 6 samples.

Results

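Chemokines and their receptors were followed in the uteri of mice that had lost *Sox17* from the uterine epithelium. The genes were taken by symbol, as those that begin with Ccl, Cxcl, Cx3cl, Xcl, Ccr, Cxcr, Cx3cr or Ackr and a digit, with *Cxcl15* left out. Of such symbols 64 in the gene table are covered here, and 54 of them were measured by a probe with a RefSeq accession, of 20145 genes so measured. These 54 genes comprised 33 ligands and 21 receptors. A gene was tested when 3 or more of the 6 arrays had its probe well above background, which 40 of the 54 passed (26 ligands and 14 receptors), of 14847 genes tested in all.

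Whole uterine horns were collected at gestation day (GD) 3.5 of natural pregnancy, after the embryos had been flushed out, from female mice mated at 8 to 10 weeks of age. The 3 *Sox17f/f* uteri (labelled WT) carried the floxed *Sox17* allele without a recombinase, and the 3 *Sox17ed/ed* uteri (labelled Sox17 KO) carried the same floxed allele with LtfiCre, an iCre placed in the *Ltf* locus that acts in the uterine epithelium from puberty on. The comparison asked which uterine transcripts differ at the time of receptivity when the epithelium lacks SOX17, a transcription factor of the SOX family. SOX17 remains in endothelial cells of the stroma of these mice, by the study's description, and the RNA came from the whole organ, with stroma, muscle, vessels and leukocytes included.

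Chemokines are small secreted proteins that attract leukocytes and other cells by binding seven-helix receptors coupled to Gi proteins, and one receptor often reads several ligands. The CC, CXC, CX3C and XC families are named for the spacing of their first cysteines. The atypical receptors (Ackr genes) bind chemokines without the usual G protein signal and take them up or carry them across cells. In the pregnant uterus chemokines of epithelium, stroma and leukocytes are known for drawing macrophages, natural killer (NK) cells, dendritic cells and neutrophils.

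The deleted gene was lower on every *Sox17ed/ed* array. The log2 intensity of *Sox17*, meaning the base-2 logarithm of the background-subtracted spot intensity after quantile normalization between arrays, was 12.21, 12.07 and 12.22 in *Sox17f/f* and 9.75, 9.59 and 9.81 in *Sox17ed/ed*. The change was -2.45 ± 0.09 (log2 fold change ± SE, n = 3 and 3 arrays, limma adjusted p = 2.66e-05). Where the probe lies against the deleted part of the gene was not tested. Between 60.7% and 65.7% of the 59305 spots were well above background on the *Sox17f/f* arrays and between 56.8% and 59.4% on the *Sox17ed/ed* arrays, and no spot was saturated. All 6 arrays lay on 1 slide, each genotype in a line of its own, so place on the slide and genotype cannot be told apart. With 3 arrays against 3, exact permutation of the genotypes could give no two-sided p below 0.1 for any gene, so p-values here are those of limma, a linear model that shares the estimate of the spread between genes.

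Of the 40 chemokine and receptor genes tested, 14 passed the thresholds that the study used (p under 0.01 before adjustment, with a change of 1.4-fold or more in either direction), and 12.5% of all genes tested did so. They split into 6 genes that were higher in *Sox17ed/ed* (*Ccl17*, *Ccl28*, *Cxcl14*, *Ccr10*, *Cxcr6* and *Ackr4*) and 8 that were lower (*Ccl2*, *Ccl7*, *Ccl8*, *Ccl12*, *Ccl9*, *Cxcl5*, *Cxcl17* and *Ackr1*), beside 6.04% higher and 6.47% lower among all genes. Of the ligands 3 were higher and 7 lower, and of the receptors 3 were higher and 1 lower. An adjusted p under 0.05, with no bound on the fold change, was met by 16 of the 40 genes (6 higher and 10 lower) and by 18.9% of all genes. Without *Sox17f/f* replicate 1 that count was 10 of the genes. The arrays of the genotypes did not overlap for 24 of the 40 genes, among them all 14 that passed, and for 40.6% of all genes tested. The median absolute log2 fold change was 0.44 over the 40 genes and 0.17 over all genes, and the medians with sign were 0.07 and -0.00. The spread between arrays of a genotype was also wider for these genes, with a median SD of 0.23 in *Sox17f/f* and 0.19 in *Sox17ed/ed* against 0.11 over all genes. In RNA from a whole organ, fewer cells of a type and less RNA per cell cannot be told apart.

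**Figure D1:**
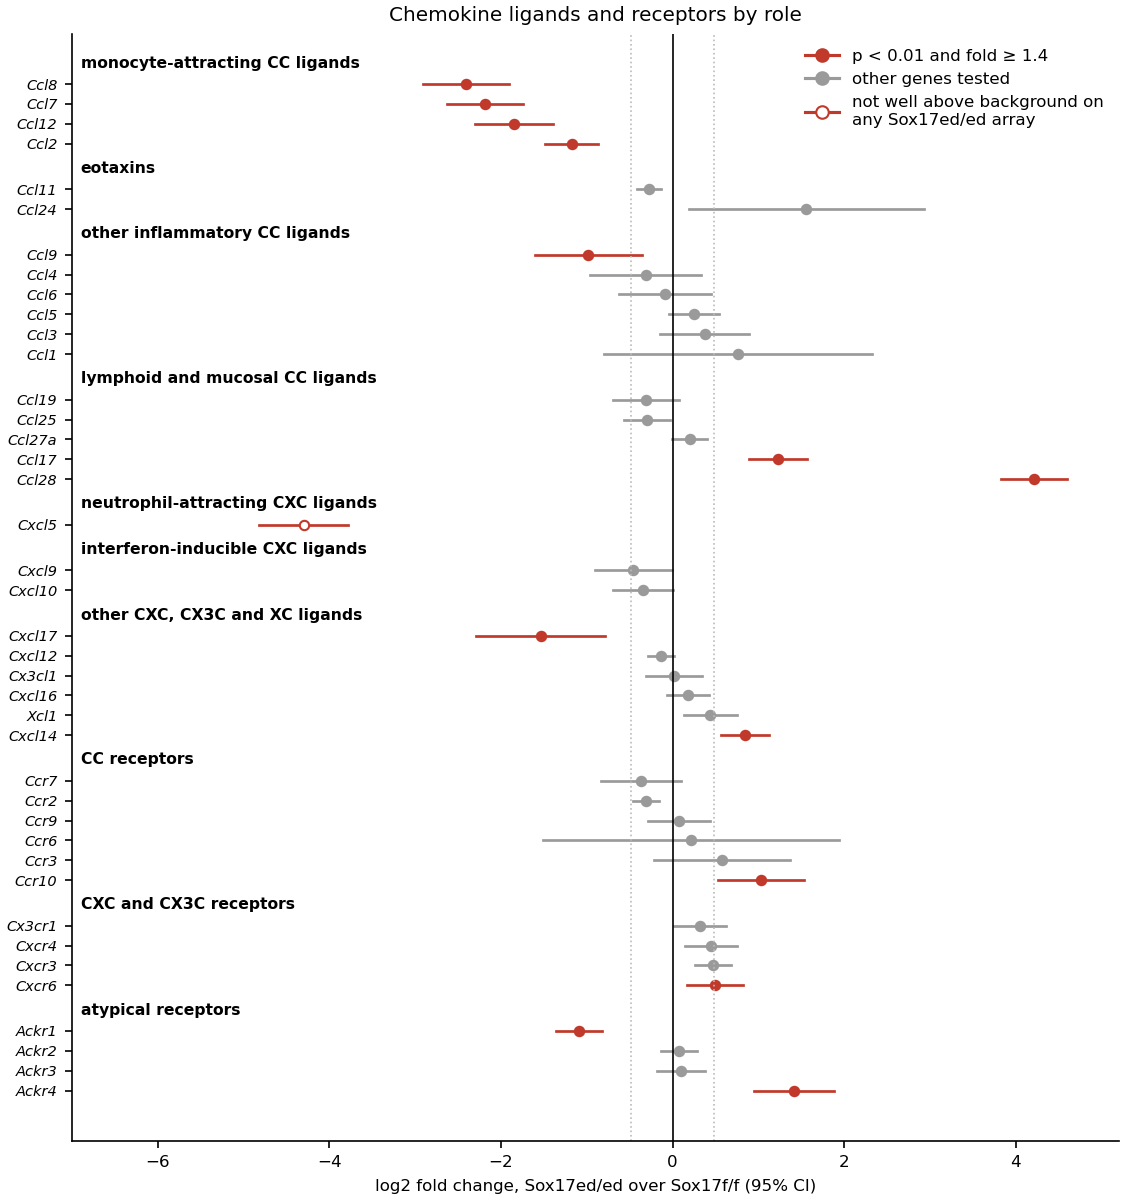
Log2 fold change, *Sox17ed/ed* over *Sox17f/f*, of the 40 chemokine and receptor genes tested, grouped by role on the vertical axis, with 1 point per gene and its 95% confidence interval. Red points passed the thresholds and grey points did not, the open marker is the fitted value of *Cxcl5*, which was not well above background on any *Sox17ed/ed* array, and the dotted lines mark a fold change of 1.4 in each direction. The 4 genes of the group labelled monocyte-attracting CC ligands all lie to the left of the dotted lines, and *Ccl28* lies farthest to the right at 4.21.

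The monocyte chemoattractant proteins (MCPs), CC ligands named for drawing monocytes into tissue, were lower, with 4 of 4 tested genes lower and a median log2 fold change of -2.02. *Ccl8* encodes MCP-2, which in the pairs listed below is set beside CCR8 and not the monocyte receptor CCR2. It had log2 intensities of 13.10, 13.59 and 13.19 in *Sox17f/f* and of 10.64, 11.27 and 10.73 in *Sox17ed/ed*. Every *Sox17f/f* array lay far above every *Sox17ed/ed* array, and the fall was 5.31-fold (-2.41 ± 0.21, adjusted p = 0.000675). *Ccl7*, which encodes MCP-3, gave 9.12, 9.56 and 9.31 against 6.82, 7.17 and 7.42. It was 4.57-fold lower (-2.19 ± 0.18, adjusted p = 0.000602), and the genotypes were again far apart. *Ccl12*, the mouse MCP-5, gave 9.46, 9.65 and 9.32 against 7.23, 7.91 and 7.75 and was 3.60-fold lower (-1.85 ± 0.19, adjusted p = 0.00144). *Ccl2* encodes MCP-1, the main ligand that brings CCR2-bearing monocytes into tissue. It showed the smallest fall of these ligands, 8.50, 8.89 and 8.65 against 7.38, 7.47 and 7.66, or 2.26-fold (-1.18 ± 0.13, adjusted p = 0.00177).

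These 4 genes are neighbours. In the order of the GRCm38.p6 gene table they lie on chromosome 11 in a run of 6 chemokine genes, *Ccl2*, *Ccl7*, *Ccl11*, *Ccl12*, *Ccl8* and *Ccl1*, and 4 of the 6 were lower. The other members of the run gave smaller values. *Ccl11*, the eosinophil attractant eotaxin, had an adjusted p of 0.0223 but missed the fold threshold, at 7.54, 7.54 and 7.53 against 7.30, 7.23 and 7.25 (-0.28). *Ccl1*, a ligand of CCR8, was near background, at 4.56, 4.01 and 2.20 against 3.76, 4.27 and 5.02, with overlapping genotypes (0.76 ± 0.65, adjusted p = 0.458). A second run on chromosome 11, *Ccl5*, *Ccl9*, *Ccl6*, *Ccl3* and *Ccl4*, held 1 lower gene among 5 tested.

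**Figure D2:**
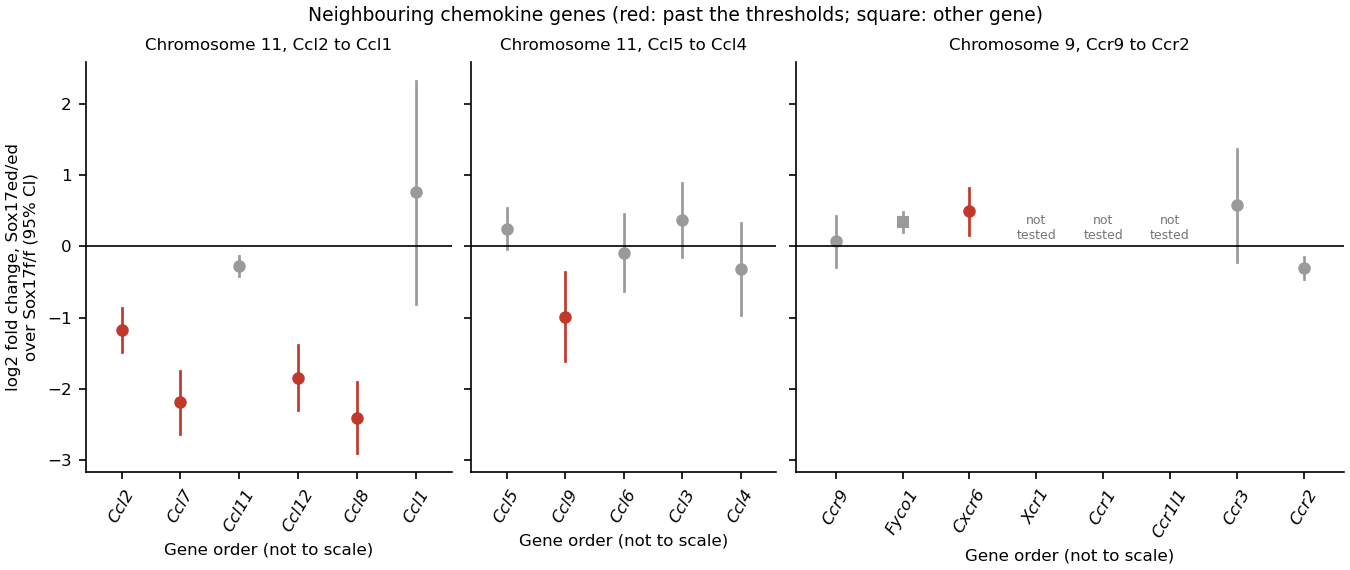
Log2 fold change of chemokine and receptor genes that lie next to each other, drawn along the horizontal axis in the order of the gene table, with 95% confidence intervals and no distances to scale. Red points passed the thresholds, and the square is a gene outside the families. In the first run on chromosome 11, *Ccl2*, *Ccl7*, *Ccl12* and *Ccl8* lie between -2.41 and -1.18, with *Ccl11* at -0.28 between them.

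Promoter sequences from RefSeq (GRCm38.p6, the 250 bases before the annotated start) could be set beside 9 of the 14 genes that passed, and 41 of the 54 genes in all. Those of *Ccl8* and *Ccl12* are shown because these neighbouring genes fell together, and that of *Ccl28* because it rose most; capitals mark TATAAA, the core of a TATA box.
Ccl8 (chr11:82114935-82115184, plus strand): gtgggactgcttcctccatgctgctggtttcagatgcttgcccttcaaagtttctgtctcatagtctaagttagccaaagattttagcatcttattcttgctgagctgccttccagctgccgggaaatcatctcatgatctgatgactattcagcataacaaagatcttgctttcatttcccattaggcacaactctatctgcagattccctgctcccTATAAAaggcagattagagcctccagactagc
Ccl12 (chr11:82101595-82101844, plus strand): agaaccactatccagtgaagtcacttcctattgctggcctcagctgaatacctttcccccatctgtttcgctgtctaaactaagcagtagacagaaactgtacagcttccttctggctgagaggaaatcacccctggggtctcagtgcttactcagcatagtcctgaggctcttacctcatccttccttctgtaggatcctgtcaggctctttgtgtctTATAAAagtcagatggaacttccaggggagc
Ccl28 (chr13:119623569-119623818, plus strand): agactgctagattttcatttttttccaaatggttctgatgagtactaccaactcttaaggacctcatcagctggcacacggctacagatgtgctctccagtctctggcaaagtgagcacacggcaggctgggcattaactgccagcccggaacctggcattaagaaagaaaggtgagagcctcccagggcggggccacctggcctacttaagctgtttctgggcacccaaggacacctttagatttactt
The TATAAA begins 32 bases before the start of *Ccl8* and 31 before that of *Ccl12*, and the *Ccl28* window holds none on either strand. Aligned base by base without gaps, the *Ccl8* and *Ccl12* windows were identical at 36.0% of positions. That was the highest of 703 pairs among the 38 genes with a single promoter listed. The next pair was close, at 34.8%, and the median was 24.8%. Searched on both strands, TATAAA was found in 12 of 45 promoters of the chemokine and receptor genes and in 12.4% of all 32851 promoters of the same length. The core letters of a SOX site, ACAAT, were found in 8 of the 45, in 0 of the 9 promoters of genes that passed, and in 27.7% of all promoters. The AP-1 letters TGANTCA were in 5 of the 45 against 6.75% of all promoters, the core of an interferon-stimulated response element in 3 against 2.98%, and an NF-kB motif in 11 against 7.25%. Of the 9 promoters of genes that passed, 4 held TATAAA, and the AP-1, interferon and NF-kB motifs were found in 1 each. Motifs were counted apart, whether or not their letters overlapped. These are matches of letters in a short window, and sites farther from the start were not searched.

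The remaining inflammatory CC ligands gave 1 lower gene of 6 tested and a median of 0.08. *Ccl9*, a ligand of CCR1, gave 10.60, 10.77 and 9.99 in *Sox17f/f* and 9.06, 9.74 and 9.60 in *Sox17ed/ed*. The lowest *Sox17f/f* array stood just above the highest *Sox17ed/ed* array, and the 1.98-fold fall (-0.98 ± 0.26, adjusted p = 0.0453) no longer passed when any array but *Sox17f/f* replicate 3 was left out, with values between -1.22 and -0.78. *Ccl3* (0.37) and *Ccl4* (-0.32), which encode the macrophage inflammatory proteins MIP-1 alpha and beta, *Ccl5* (0.25, adjusted p = 0.202), the RANTES gene of T and NK cells, and *Ccl6* (-0.09) did not pass. The 2 eotaxins tested did not pass either. *Ccl24* was well above background on 2 *Sox17f/f* and 3 *Sox17ed/ed* arrays, at 4.36, 4.61 and 2.77 against 4.94, 6.27 and 5.21, and its wide spread left a value of 1.56 ± 0.57 with an adjusted p of 0.110.

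The lymphoid and mucosal CC ligands held 2 higher genes of 5 tested, with a median of 0.20. *Ccl28*, the mucosal chemokine of secretory epithelia that attracts IgA-secreting plasma cells through CCR10 and lymphocytes and eosinophils through CCR3, had log2 intensities of 5.08, 5.57 and 5.02 in *Sox17f/f*. In *Sox17ed/ed* it reached 9.44, 9.33 and 9.52. No array of either genotype came near the other, and the rise was 18.5-fold (4.21 ± 0.16, adjusted p = 3.09e-05), rank 36 from the top among all genes tested, and 2.92 on the log2 scale with normexp, a background correction that adds an offset. *Ccl17*, which attracts T cells through CCR4, was at 4.91, 4.83 and 4.48 against 5.85, 6.15 and 5.91, and rose 2.34-fold (1.23 ± 0.14, adjusted p = 0.00229), with 0.50 under normexp. Its neighbours on chromosome 8 are *Cx3cl1*, which gave 0.02, and *Ccl22*, the other CCR4 ligand, which was not above background on any array. *Ccl25* (-0.30), the gut ligand of CCR9, did not pass. *Ccl19*, a lymph node ligand of CCR7, gave -0.31 (adjusted p = 0.223) and *Ccl27a*, a skin ligand of CCR10, gave 0.20. Both are uncertain, since near-identical copies of them lie in the genome and their probes disagreed. The probes of *Ccl19* gave -0.31, -0.53 and -0.25, of which the middle one alone would have passed, and 1 of the *Ccl27a* probes gave -0.09.

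**Figure D3:**
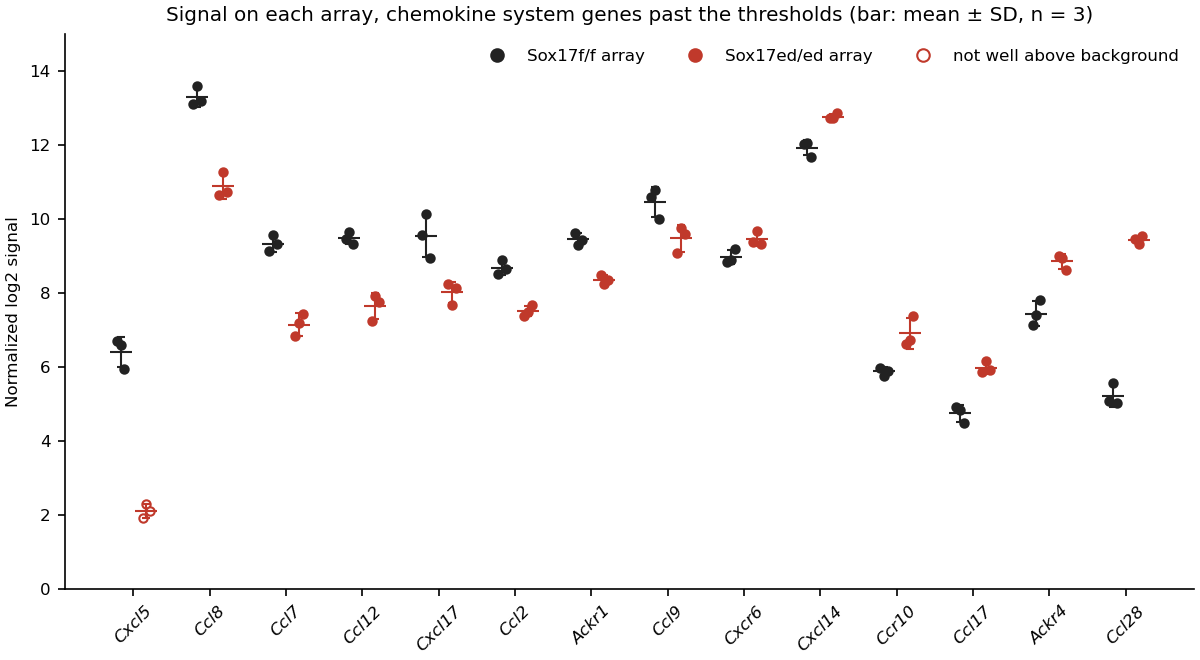
Log2 intensity of the 14 genes that passed the thresholds, with 1 point per array (3 *Sox17f/f* and 3 *Sox17ed/ed*) and bars for each genotype's mean ± SD (n = 3). Open points were not well above background. Levels of different genes come from different probes and are not to be set against each other. The arrays of the genotypes lie apart for every gene, most widely for *Cxcl5* and *Ccl28* and most narrowly for *Cxcr6*, where 9.18 in *Sox17f/f* lies beside 9.32 in *Sox17ed/ed*.

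Neutrophil-attracting CXC ligands were mostly below detection. *Cxcl5* (LIX), made by epithelia and read by CXCR2, was the exception, at 6.69, 6.58 and 5.94 in *Sox17f/f* and well above background on all 3 of those arrays. On the *Sox17ed/ed* arrays it was not well above background, with measured values of 1.92, 2.30 and 2.10, so the fall was at least 5.28-fold. The gene was tested through its *Sox17f/f* arrays alone. Its limma adjusted p of 8.57e-05 came from the fit to all these values, the uncertain low ones included, and does not belong to the bound. The bound sets the mean of the *Sox17f/f* arrays against the lowest signal well above background on each *Sox17ed/ed* array, or the probe's own signal where that was higher. With normexp the fitted change was -1.21, under this bound. *Cxcl1* (KC) was well above background on 1 *Sox17f/f* array only, with values of 3.79, 4.92 and 2.83 against 1.78, 1.77 and 1.98, and was not tested. *Cxcl2* and *Cxcl3* were not well above background on any array. Their receptor gene *Cxcr2* was detected on 2 *Sox17f/f* arrays and no *Sox17ed/ed* array, at 3.99, 5.04 and 5.36 against 3.78, 2.58 and 4.46. Neutrophil marker genes, with 0 of 7 tested passing and a median of -0.16, had summed intensities of 44000 to 50400 in *Sox17f/f* and 46800 to 49300 in *Sox17ed/ed*, overlapping ranges. *Csf3r* made up 93.7% to 96.0% of that sum, and the other 6 genes summed to 1930 to 2390 against 1970 to 2980. *S100a8* gave -0.41 (adjusted p = 0.448).

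Among the other CXC, CX3C and XC ligands 1 of 6 tested was higher and 1 lower, with a median of 0.10. *Cxcl17*, a ligand of mucosal epithelia, gave 9.57, 10.12 and 8.95 in *Sox17f/f* and 8.22, 7.67 and 8.12 in *Sox17ed/ed*. The *Sox17f/f* arrays were widely spread, yet all lay above the *Sox17ed/ed* arrays, and the fall was 2.91-fold (-1.54 ± 0.31, adjusted p = 0.0194). *Cxcl14*, a chemokine of epithelia and stroma, gave 12.03, 12.04 and 11.68 against 12.71, 12.71 and 12.86 and rose 1.79-fold (0.84 ± 0.12, adjusted p = 0.00488). *Cxcl12* (-0.14), the stromal ligand of CXCR4, *Cxcl16* (0.18), the membrane-bound ligand of CXCR6, and *Cx3cl1* (0.02), the ligand of CX3CR1, did not pass. *Xcl1*, the lymphotactin of NK and T cells, did not pass, although its arrays did not overlap, at 9.22, 9.14 and 9.57 against 9.70, 9.86 and 9.69 (0.44 ± 0.13, adjusted p = 0.0619). The interferon-inducible ligands of CXCR3 gave overlapping arrays. *Cxcl9* was at 6.69, 6.81 and 7.14 against 6.11, 6.71 and 6.44 (-0.46, adjusted p = 0.143) and *Cxcl10* at 8.89, 8.49 and 8.97 against 8.51, 8.51 and 8.29 (-0.35, adjusted p = 0.149).

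Among the CC receptors 1 of 6 tested was higher and none lower, with a median of 0.14. *Ccr10*, the receptor of CCL27 and CCL28, gave 5.97, 5.76 and 5.88 in *Sox17f/f* and 6.61, 6.73 and 7.38 in *Sox17ed/ed*. Every *Sox17ed/ed* array lay above every *Sox17f/f* array, and it rose 2.05-fold (1.03 ± 0.21, adjusted p = 0.0189), with 0.63 under normexp. *Ccr2*, the monocyte receptor of CCL2, CCL7 and CCL12, was at 8.07, 8.14 and 8.13 against 7.81, 7.75 and 7.85. Its arrays did not overlap and its adjusted p was 0.0211, but the change of -0.31 was under the fold threshold. *Ccr3*, the eosinophil receptor, gave 7.19, 6.71 and 6.67 against 6.70, 7.87 and 7.73, with overlapping arrays (0.58 ± 0.33, adjusted p = 0.274). *Ccr6* (0.21), *Ccr7* (-0.37) and *Ccr9* (0.08), which home lymphocytes and dendritic cells to mucosa, lymph node and gut, did not pass.

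The CXC and CX3C receptors tested all had positive values, from 0.32 to 0.49 with a median of 0.46, and 1 of 4 passed. *Cxcr6*, a receptor of NK and T cells, gave 8.82, 8.89 and 9.18 in *Sox17f/f* and 9.38, 9.67 and 9.32 in *Sox17ed/ed*. The 1.41-fold rise (0.49 ± 0.13, adjusted p = 0.0513) stood at the fold threshold and did not pass the adjusted one. It no longer passed when any array but *Sox17f/f* replicate 3 was left out, with values from 0.39 to 0.60, and its second probe gave 0.39 and did not pass. *Cxcr3*, the receptor of CXCL9 and CXCL10 on NK and T cells, gave 8.76, 8.65 and 8.90 against 9.22, 9.33 and 9.19, values just under the fold threshold (0.47, adjusted p = 0.0142). *Cxcr4* gave 5.58, 5.67 and 5.86 against 5.93, 6.26 and 6.27 (0.45, adjusted p = 0.0566), and *Cx3cr1*, a receptor of monocytes, macrophages and NK cells, gave 0.32 (adjusted p = 0.134). Of the NK cell marker genes 3 of 8 tested were higher beside these receptors, the cytotoxic granule genes *Gzmb* (1.37), *Prf1* (0.56) and *Nkg7* (0.49), none was lower, and the median was 0.52. *Prf1* did not pass the adjusted threshold (limma adjusted p = 0.0502), and *Nkg7* stood at the fold threshold. The 5 other NK cell markers did not pass, among them *Gzma* (0.70), *Klrb1c* (0.08), *Eomes* (-0.08) and *Klrk1* (-0.44), the last not well above background on any *Sox17ed/ed* array. The summed intensity of the 8 was 7080 to 10200 in *Sox17f/f* and 11500 to 17100 in *Sox17ed/ed*, with the natural cytotoxicity receptor gene *Ncr1* at 0.63 (adjusted p = 0.0892). T cell markers had 0 of 8 passing, summed intensities of 4080 to 4300 against 4200 to 4950, and *Cd3e* at 0.09 (adjusted p = 0.719). The part of NK or T cells in the receptor values was not tested.

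All 4 atypical receptors were tested, and 1 was lower and 1 higher. *Ackr1*, the Duffy receptor that carries chemokines across the endothelium of venules, gave 9.62, 9.30 and 9.42 in *Sox17f/f* and 8.48, 8.23 and 8.35 in *Sox17ed/ed*, a 2.13-fold fall (-1.09 ± 0.11, adjusted p = 0.00130). Of the blood endothelium markers 0 of 6 passed, but their median was -0.34. Their summed intensity was 8650 to 8790 against 6760 to 7120, lower on every *Sox17ed/ed* array. Not each gene was so, since *Tek* was 8.36 in *Sox17f/f* replicate 1 and 8.38 in *Sox17ed/ed* replicate 3. *Emcn* gave -0.08. The part of the endothelium in the *Ackr1* value was not tested. *Ackr4*, which removes CCL19, CCL21 and CCL25, gave 7.12, 7.39 and 7.79 against 8.98, 8.95 and 8.60 and rose 2.66-fold (1.41 ± 0.19, adjusted p = 0.00445). Lymphatic endothelium markers had 1 of 4 lower (*Pdpn* -0.72), none higher and a median of 0.02, with *Lyve1* at 0.02 (adjusted p = 0.918). *Ackr2* (0.07), a scavenger of inflammatory CC chemokines, and *Ackr3* (0.10), a scavenger of CXCL12, did not pass.

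Ligands and receptors were set side by side in textbook pairs, chosen after the values were known. The list leaves out some pairs, such as CCL28 with CCR3 and ACKR4 with CCL19 or CCL25. Of the 23 pairs listed 15 had both genes tested. Both passed in 1 pair, *Ccl28* with *Ccr10*, which were both higher in *Sox17ed/ed*. The ligand alone passed in 3 pairs, *Ccl2*, *Ccl7* and *Ccl12* with *Ccr2*, the receptor alone in 2, and neither in 9.

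**Figure D4:**
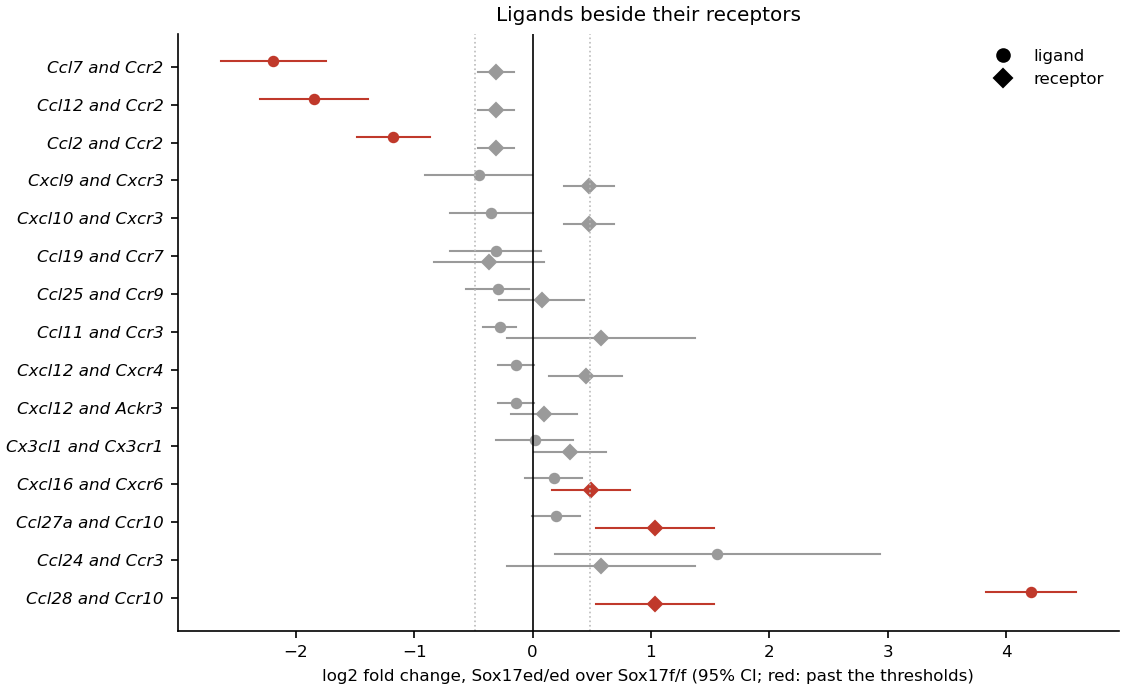
Log2 fold change (horizontal axis, with 95% confidence intervals) of the ligand (circle) and the receptor (diamond) in the 15 listed pairs with both genes tested. There is 1 pair to a line, red where the gene passed the thresholds, with dotted lines at a fold change of 1.4. Pairs with a ligand or receptor in common repeat its value. *Ccl28* and *Ccr10*, at 4.21 and 1.03, are the pair with both symbols red, and the 3 ligands of *Ccr2* lie far to the left of their receptor at -0.31.

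Cytokines and genes of pathways that control chemokine transcription had 0 of 24 tested higher and 7 lower. Their median was -0.29, beside -0.00 over all genes. The 7 included *Nfkbia* (-0.56), which encodes an inhibitor of NF-kB, so not all of them raise chemokine transcription. *Il1b*, the interleukin that induces many chemokines, was 7.32 ± 0.20 in *Sox17f/f* and 4.72 ± 0.14 in *Sox17ed/ed* (SD, n = 3), a fall of 2.60 ± 0.13 (SE, limma adjusted p = 8.07e-05). *Il6* and *Csf3*, genes of cytokines that act on leukocytes, were not well above background on any *Sox17ed/ed* array and were at least 6.60-fold and at least 2.33-fold lower. Like *Cxcl5*, both were tested through their *Sox17f/f* arrays alone and could only be called lower. They enter the count of 7 and the median. *Myd88*, the adaptor of interleukin-1 and Toll-like receptors, gave -2.17. *Tnf* was not tested, and *Ifng* gave -0.08 and did not pass. Downstream of the receptors, 3 of 53 tested signalling genes were higher (*Grk3* 0.73, *Vav3* 0.69 and *Tiam1* 0.53) and 6 lower, led by *Stat3* (-1.05), *Ptk2b* (-0.79), *Rgs16* (-0.78) and *Jak3* (-0.77), with a median of -0.13. Genes of the chemokine system with other symbols had 2 of 14 tested lower, *Cmtm8* (-1.01) and *Gpr35*, which no *Sox17ed/ed* array showed well above background. *Gpr35* was likewise tested through its *Sox17f/f* arrays alone. None of the 14 was higher.

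Pan-leukocyte markers went in either direction beside the lower MCP genes, from -0.31 (*Laptm5*) to 0.28 (*Cd52*). Of the 6 genes none passed, their median was 0.05, their summed intensity was 16400 to 18200 in *Sox17f/f* and 17800 to 21700 in *Sox17ed/ed*, and *Ptprc* (CD45) gave -0.06 (adjusted p = 0.606). Macrophage and monocyte genes had 2 of 10 tested lower, *Fcgr1* (-1.19) and *Mrc1* (-0.88), none higher and a median of -0.13. Their summed intensity was 26300 to 26700 against 27000 to 28100, and without *Csf1r*, the brightest, 18400 to 19300 against 17400 to 17700, with *Adgre1* at -0.11 (adjusted p = 0.523), *Csf1r* at 0.41 and *Cd163* not above background on any array. Dendritic cell genes had 1 of 7 lower (*Batf3* -0.59) and a median of 0.09. *Siglech* made up 92.0% to 93.9% of their sum, and the other 6 summed to 2290 to 2510 against 2010 to 2410. Mast cell genes had 1 of 5 lower (*Kit* -1.86) and sums of 2240 to 2930 against 1200 to 1580, which overlapped without *Kit*, at 1100 to 1550 against 907 to 1240. Eosinophil genes had 1 of 4 higher (*Prg2* 1.27), none lower and a median of 0.56, with sums of 480 to 815 against 633 to 918. Without *Ear2*, the brightest (-0.15), the sums did not overlap, at 176 to 183 against 225 to 399. B cell genes had 1 of 3 higher (*Cd79b* 0.95), with sums of 363 to 450 against 560 to 655 that overlapped without it, at 157 to 174 against 136 to 170, while *Ms4a1* and *Pax5* were not above background on any array.

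Markers of the uterine tissues also differed. Epithelial genes had 4 of 7 higher (*Krt19* 2.10, *Krt7* 1.46, *Krt8* 0.69 and *Cdh1* 0.59) and none lower. Their summed intensities were 35700 to 38100 in *Sox17f/f* against 45800 to 57300 in *Sox17ed/ed*. Without *Krt18*, the brightest, the sums were 9860 to 11300 against 23700 to 32300. *Epcam* (0.10, adjusted p = 0.535), *Krt18* (-0.16) and *Cldn4* (-0.34) did not pass. The 4 epithelial genes that passed, and *Epcam*, had the sign of *Ccl28* and *Cxcl14*. *Krt18* and *Cldn4* had that of *Cxcl5* and *Cxcl17*. A shared sign does not tell which cells a transcript came from. Stromal genes had 0 of 6 passing and a median of 0.16, with 4 of 6 values above 0. Their sums were 205000 to 206000 against 170000 to 192000, and overlapped without *Dcn*, the brightest (-0.42), at 89800 to 93700 against 86900 to 98500. Smooth muscle genes had 1 of 6 lower (*Actg2* -0.64), with sums of 469000 to 516000 against 341000 to 412000. The part of the tissue makeup in the chemokine values was not tested.

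**Figure D5:**
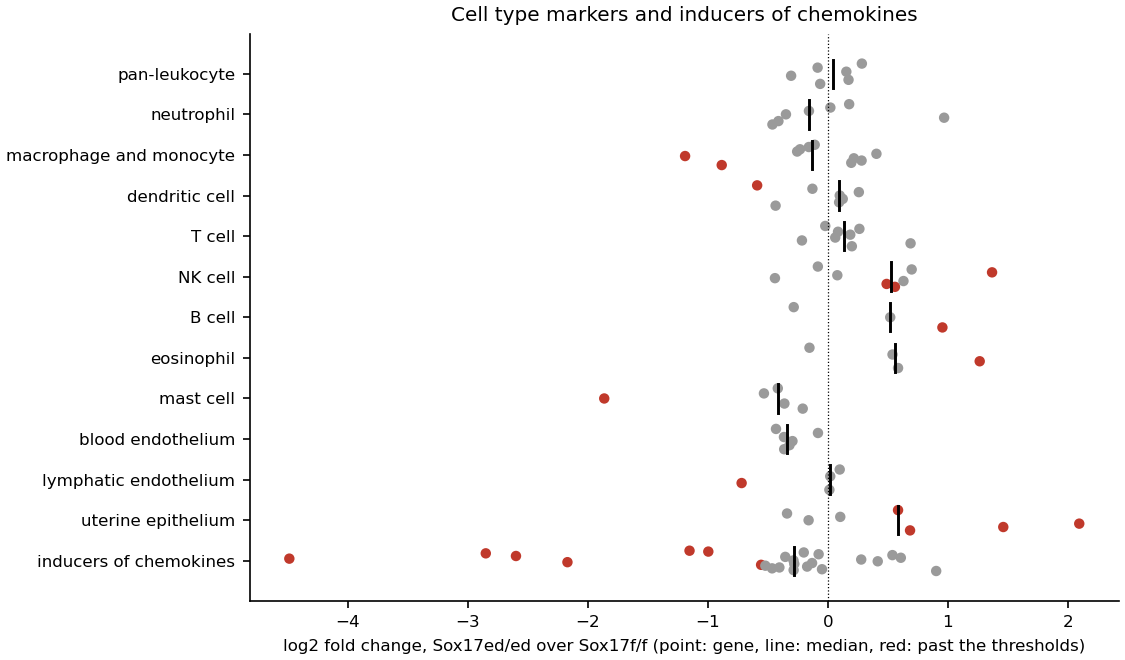
Log2 fold change (horizontal axis) of the genes in 12 marker lists and of the inducers of chemokines, with 1 point per tested gene, red where it passed the thresholds, and a line at the list's median. Points of *Il6* and *Csf3*, the leftmost inducers, are fitted values of genes given as bounds in the text. NK cell and epithelial markers have medians of 0.52 and 0.59, pan-leukocyte and T cell markers 0.05 and 0.14, and blood endothelium markers have a median of -0.34.

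Of the 26 genes tested that did not pass, with values from -0.46 to 1.56, the 95% confidence interval lay within a fold change of 1.4 for 9 and reached past it for 17, so that many of these genes could have changed by more than the threshold at this number of arrays. The 14 genes not tested were below detection on most arrays. No array was well above background for *Ccl20*, *Ccl22*, *Cxcl2*, *Cxcl3*, *Ccr1*, *Ccr1l1*, *Ccr8*, *Cxcr1* and *Cxcr5*, and 1 or 2 arrays, all *Sox17f/f*, for *Ccl26*, *Cxcl1*, *Cxcl13*, *Ccr4* and *Cxcr2*. Over all spots, too, more were well above background on the *Sox17f/f* arrays, 60.7% to 65.7% against 56.8% to 59.4%. Detection on *Sox17f/f* arrays alone is therefore not read as a change of these genes. On chromosome 9, where *Ccr9*, *Cxcr6*, *Ccr1*, *Ccr1l1*, *Ccr3* and *Ccr2* lie in a run of 8 genes, 4 of these 6 receptors were tested, of which *Cxcr6* was higher and none was lower. *Ccl21a*, *Ccl21b*, *Ccl21c*, *Ccl21d*, *Ccl27b*, *Cxcl11* and the pseudogenes *Ccl16-ps*, *Ccl19-ps1*, *Ccl19-ps2* and *Ccl19-ps3* were not analysed here.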

How the data were processed

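Whole uterine RNA of 3 *Sox17f/f* and 3 *Sox17ed/ed* mice at GD 3.5, grouped by genotype as labelled, was hybridized with cyanine 3 to 6 Agilent G3 Mouse GE microarrays. The authors deposited the scanner output. Its processed signal, the intensity taken here, came from Feature Extraction (11.0.1.1 in the file headers, 9.1 in the submitters' processing notes), with background and spatial trends already removed and no normalization between arrays. The deposited table of processed values, also an intensity, lay within 0.191% of that signal. Low intensities after background subtraction are uncertain on a log scale.

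Control spots and the 169 to 302 spots per array marked as outliers were left out. The log2 intensities were quantile normalized, as the methods state, and spots of a probe were averaged. Of 55681 probes, 26582 were named by RefSeq accession through the GRCm38.p6 gene table, whereas the array's own positions are on mm9, so positions come from the RefSeq tables alone. The brightest of a gene's probes that was well above background on 3 or more arrays stood for it, and 45 of the 54 chemokine and receptor genes had 1 probe. Missing values, 85 in all and 0 for these 54 genes, were left missing. The fit was limma 3.58.1 (lmFit and eBayes, R 4.3.3), and p-values were adjusted by Benjamini and Hochberg's method over the 14847 genes. Python 3.11.15 and matplotlib 3.10.9 were used for sequences and plots. Marker intensities were summed on the linear scale. The number of arrays limits the precision. The labels call the 3 samples of a genotype biological, and the number of mice behind each is not given in the sources used here.

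A gene of these families and a B cell marker are not reported here and enter no count of members or lists. All other chemokine and receptor genes were accounted for. Those that passed were given in full, and of each pathway or marker list the passing genes with the largest changes (at most 4) and the defining markers were named. The members and lists were chosen with earlier results of these data known. Other genes were named with their values seen. In data simulated from the real means and spreads of 14762 genes, with 200 changed, the thresholds recovered 93 of 100 genes changed by a log2 of 1 and 99 of 100 changed by 2, and called 64 unchanged genes. Alternatives were a 75th percentile shift, normexp with an offset of 50, other filters and probes, the deposited values, a fold of 2, the replicate number as a block and leaving out each array.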

Additional observations from a re-analysis of the deposited data

How the results depend on the processing

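Of the 14 genes that passed, 12 did so in every one of the 15 alternatives with the same thresholds that gave them a value, 9 with 6 arrays and 6 that left out 1 array, and none changed sign. The exceptions were *Ccl9*, which passed in 8 of the 15, and *Cxcr6*, which passed in 3 of the 15 with values from 0.39 to 0.60. *Ccl9* was lost with no filter on dim probes and with the replicate block, at -0.98 in both. It was also lost when any array but *Sox17f/f* replicate 3 was left out. The count that passed was 12 to 14 with 6 arrays, 11 at a fold of 2, and 12 to 17 with 1 array left out. The count at an adjusted p under 0.05 was 16, 12 to 18 with 6 arrays and 10 to 20 with 1 array left out, 10 without *Sox17f/f* replicate 1. Normexp, run on the median signal because the files hold no mean signal, was chosen after seeing the data, and the planned version on the mean signal was not run. It gave smaller changes for the dimmer genes, *Ccl28* 2.92, *Ccl17* 0.50, *Cxcl5* -1.21 and *Ccr10* 0.63, all still past the thresholds. Requiring all 6 arrays above background gives no value for *Cxcl5*, *Ccl24*, *Ccl1* and *Ccr6*.

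Over all genes tested, deviations from the genotype means of arrays with the same replicate number correlated at 0.06, -0.11 and -0.00. No pairing by number was seen in these values, but they cannot show how the mice were matched. With the replicate block 12 genes passed, *Ccl9* and *Cxcr6* being lost. Signs changed for 4 genes that did not pass. With 1 array left out, *Ccl6* ranged from -0.26 to 0.12, positive without *Sox17f/f* replicate 1 (0.01) or *Sox17ed/ed* replicate 1. *Cx3cl1* gave -0.0033 with normexp and ranged from -0.12 to 0.13, negative without *Sox17f/f* replicate 3 or *Sox17ed/ed* replicate 3. *Ccr6* ranged from -0.38 to 0.96, negative without *Sox17f/f* replicate 2 or *Sox17ed/ed* replicate 3, and *Ccr9* ranged from -0.071 to 0.17, negative without *Sox17f/f* replicate 2. A further 6 genes passed in some alternative only, *Ccl19* with its second probe (-0.53), *Cxcl10* without *Sox17f/f* replicate 2 (-0.50), *Ccr3* without *Sox17ed/ed* replicate 1 (0.94), *Xcl1* with normexp (0.53) or without *Sox17f/f* replicate 3 (0.57), and *Cxcr3* (0.49 to 0.54) and *Cxcr4* (0.53 and 0.56) without single arrays. The cause was not tested.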
